A study of Saccharomyces cerevisiae with 95 samples.

Results

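The data described here are a course of 8 arrays, of 95 arrays in the whole series, that follow budding yeast (Saccharomyces cerevisiae) through a pulse of sodium chloride in a chemostat fed with a histidine-limited medium. The 8 arrays were taken by their titles, which name this salt perturbation and a time. Of these, 2 arrays hold steady-state cells at -5.13 and -2.03 h, and 6 arrays hold cells at 0.23, 1.82, 2.9, 5.28, 7.37 and 17.15 h after the salt. The wider study asked how far gene expression tracks growth rate and how far it tracks signals from the environment. Its chemostat experiments gave stresses, a drug or more of the limiting nutrient to cultures at steady state.

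The salt was added to 0.31 M, and since the medium kept flowing, the pulse was washed out again over the course. Cy5 carried the chemostat cells of each time and Cy3 a batch culture grown to late log phase in histidine-limited medium. The deposited values are log2 of Cy5 over Cy3 after the authors' normalization. A value above 0 therefore marks more RNA in the chemostat cells, and the dyes were never exchanged. All arrays came from 1 culture with 1 array per time, and the 2 steady-state arrays are the only repeats. Both channels are labelled as haploid wild-type BY4741, whereas the study's methods name a W303-1 strain with a disrupted BAR1 gene and mutations in HIS3, LEU2, TRP1, URA3 and ADE2 for the histidine-limited cultures. For this course the medium label also carries the value that belongs to the glucose-limited medium. Against this course stand a heat shock in the same limitation (10 arrays) and a salt pulse of 0.4 M in glucose-limited BY4741 (8 arrays), each with a first array at 0.25 h. The steady-state arrays of the heat shock course are named glucose-limited in their source but histidine-limited in their titles, and the titles were followed. Steady-state arrays of a clotrimazole course in histidine limitation also enter the error estimate and a baseline of all 7 histidine-limited steady-state arrays. Their source mentions NaCl, and again the titles were followed.

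High salt draws water out of a yeast cell and lets sodium in. The high osmolarity glycerol (HOG) pathway, a kinase cascade that ends in Hog1, answers by raising the synthesis of glycerol, which balances the water loss, while the ENA pumps at the plasma membrane export sodium. Most stresses also set off a shared programme, the environmental stress response, in which protective genes under Msn2 and Msn4 are induced and genes for making ribosomes are shut down. Cells short of histidine keep Gcn4 active, a transcription factor that drives the genes of amino acid synthesis, and grow only as fast as histidine is supplied. No sequence is shown, since the reference for this series holds names and no sequences.

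On the 6132 features of each array the repeat steady-state arrays had a correlation of 0.92 across features, which are not independent, and the SD of their difference was 0.22. Only 0.457% of features differed between them by a log2 value of 1 or more. The spread over features was 0.54 and 0.57 (SD of the log2 ratio) at steady state, 0.95 at 0.23 h and 0.65, 0.61, 0.59, 0.57 and 0.56 at the later times, so the first array after the salt stood apart and the last resembled the steady state in spread. Spot intensities are not analysed here, and precision is limited by how few arrays there are. Each change below is the log2 ratio of an array after the salt minus the mean of both steady-state arrays, tested with limma and called at an adjusted p under 0.05. The error of a lone array was taken from 3 pairs of repeat steady-state arrays (of the salt, heat shock and clotrimazole courses), so the p-values measure the spread between repeat arrays of a culture and assume that a lone array varies as these do. The median standard error of a change was 0.15, and the smallest change called at 0.23 h was 0.34. As the arrays measure mixed cells, fewer cells of a kind and less RNA per cell cannot be told apart.

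At 0.23 h after the salt, 3036 of 6132 features were called (49.5%), 1526 higher (24.9%) and 1510 lower (24.6%), and 565 and 562 of them had changed by a log2 value of at least 1. At 1.82 h the calls numbered 239 (3.9%), with 103 higher (1.68%) and 136 lower (2.22%). They numbered 160 at 2.9 h (2.61%), with 74 higher (1.21%) and 86 lower (1.4%), and 48 at 5.28 h (0.783%), with 15 higher (0.245%) and 33 lower (0.538%). At 7.37 h limma called 0 features (0.0%, with 710 at an unadjusted p under 0.05). At 17.15 h a single feature was called (0.0163%), the gene of the peroxisomal beta-oxidation enzyme FOX2, with a log2 ratio of 1.11 on that array and between -0.24 and 0.30 on the 7 others. The later counts rested on both steady-state arrays, since without the array at -5.13 h or that at -2.03 h they were 69 or 115 at 1.82 h, 49 or 73 at 2.9 h, 28 or 35 at 5.28 h, 2 or 8 at 7.37 h and 0 or 6 at 17.15 h. After quantile normalization, which gives all arrays the same spread over features, the calls at 0.23 h numbered 1499, with 726 higher and 773 lower.

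**Figure D1:**
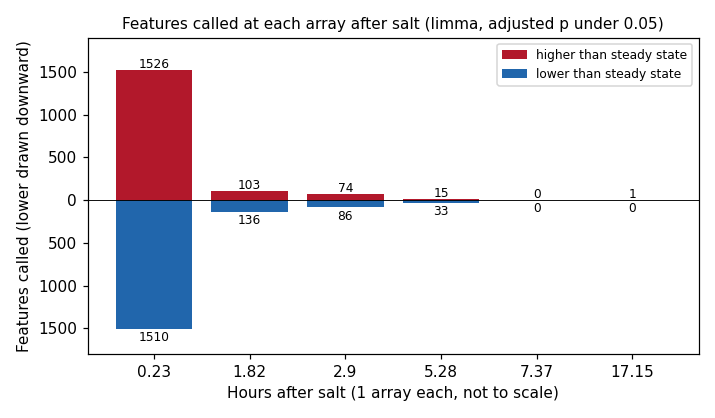
Features called by limma (adjusted p under 0.05) on each array after the salt, with counts above steady state drawn upward and counts below it drawn downward, against hours after the salt (not to scale, 1 array each). The counts at 0.23 h were 1526 and 1510, those at 1.82 h 103 and 136, and those at 7.37 h 0 and 0.

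Of 10 genes of glycerol synthesis and retention, 7 rose at 0.23 h and 0 fell, with a median change of 0.55, against -0.01 over all features. STL1 (YDR536W), the proton symporter that takes glycerol back into the cell, had log2 ratios of -0.16 and -0.09 at steady state and then 5.79, 0.56, -0.27, -0.06, -0.06 and 0.07. Only the array at 0.23 h was far from steady state, where STL1 had risen by 5.91 ± 0.13 (SE), or 60.2-fold (adjusted p = 1.02e-08). GPD1 (YDL022W), the glycerol-3-phosphate dehydrogenase that sets the rate of glycerol synthesis in salt, had -0.06 and 0.35 at steady state and then 3.85, 1.15, 1.37, 0.72, 0.52 and 0.05. All arrays from 0.23 to 7.37 h lay above both steady-state arrays. Its rise at 0.23 h was 3.70 ± 0.17 (adjusted p = 4.8e-07), and it was still called at 1.82 h (1.01) and 2.9 h (1.22) but not at 5.28 h (0.57, adjusted p = 0.203).

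The 2 phosphatases that finish glycerol synthesis differed in size. GPP2 (YER062C) rose 5.41-fold at 0.23 h, with a log2 ratio of 2.31 against -0.06 and -0.19 at steady state. GPP1 (YIL053W) rose 1.76-fold (0.82 ± 0.21, adjusted p = 0.0108), with 0.63 against -0.48 and 0.12, and its steady-state arrays lay further apart than those of GPP2. The dehydrogenase GPD2, known from anaerobic growth, rose by 0.44, and the regulators of the glycerol channel ASK10 and RGC1 rose by 0.44 and 0.66. The channel itself, FPS1, had a change of -0.37 that was not called (adjusted p = 0.0597), nor were those of GUP1 (-0.11) and GUP2 (-0.23). All 5 genes of glycerol and dihydroxyacetone breakdown rose with those of synthesis, by a median of 1.78. The largest of these changes was that of the dihydroxyacetone kinase DAK1 (3.51 ± 0.19, 11.4-fold), followed by GCY1 (2.23), GUT2 (1.78), DAK2 (1.07) and the glycerol kinase GUT1 (0.69).

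More of the change in ENA1 than in STL1 was left at 1.82 h, 54.6% against 11.6%, a difference that was not tested. ENA1 (YDR040C), the main sodium pump, had log2 ratios of -0.21 and -0.09 at steady state and then 2.18, 1.12, 1.00, 0.59, 0.62 and 0.13. Every array up to 17.15 h was above both steady-state arrays, and the levels declined in steps. The rise at 0.23 h was 5.05-fold (2.34 ± 0.14, adjusted p = 1.82e-06), of which 49.4% was left at 2.9 h, where ENA1 was still called. The copies ENA2 and ENA5 lie beside it and are nearly identical in sequence, so their spots can take up the same RNA and the 3 are not separate measurements. They read 2.67 and 3.11 above steady state at 0.23 h, with 52.1% and 55.2% of this left at 1.82 h, and ENA2 was still called at 5.28 h (0.88, adjusted p = 0.0358).

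PMA1, the proton pump that powers uptake at the plasma membrane, changed its direction. Its log2 ratios were 0.01 and 0.13 at steady state and then -0.69, 0.93, 0.80, 0.64, 0.67 and 0.09. It was below both steady-state arrays at 0.23 h only and above both from 1.82 to 7.37 h. The fall of 0.76 at 0.23 h was called (adjusted p = 0.00452), as was the rise of 0.86 at 1.82 h (adjusted p = 0.0257). Of the 21 genes of sodium, potassium and proton transport, 11 rose at 0.23 h and 3 fell (PMA1, SIS2 and the potassium transporter TRK1), with a median of 0.49. After quantile normalization 6 were called higher and 0 lower at 0.23 h (median 0.30), so the fall of PMA1 was not called in that setting. At 1.82 h it left 3 called higher and 0 lower. Among those that rose were the phosphatase PPZ2 (1.35), the activator HAL9 (1.19) and the kinases HAL5 (1.07) and SAT4 (0.81), which keep the potassium transporters in place. The sodium-proton antiporter NHA1 had a change of 0.39 that was not called (adjusted p = 0.0999).

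Of 28 genes of the HOG cascade itself, 7 rose and 7 fell at 0.23 h, with a median of 0.23. These shares were close to the 24.9% and 24.6% called each way over all features. After quantile normalization 1 was called higher and 2 lower. With shares this near those over all features, the members are given for their values only. Among those that fell were HKR1 (-0.82), MSB2 (-0.73), SHO1 (-0.61), STE20 (-0.46), SLN1 (-0.42) and the kinase SSK22 (-0.89). The kinase PBS2 (0.45) and the response regulator SSK1 (0.62) rose. HOG1 had 0.40 at 0.23 h, against 0.06 and -0.03 at steady state, and was not called (adjusted p = 0.0637). Of the transcription factors behind the cascade, MSN2 rose 3.15-fold (1.65 ± 0.17, adjusted p = 3.18e-05), with log2 ratios of 1.99 at 0.23 h and 1.13 at 1.82 h, against 0.40 and 0.27 at steady state. HOT1 (0.36), SKO1 (0.28) and MSN4 (-0.01) were not called, and the change of MSN4 turned positive without the array at -2.03 h (0.034) and after quantile normalization (0.26).

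HOT1 stood out later in the course. Its log2 ratios were -0.26 and -0.52 at steady state and then -0.03, -0.53, -0.65, -2.87, -1.63 and -0.60, so that the arrays at 5.28 and 7.37 h alone lay far below the rest. The change at 5.28 h was -2.48 (adjusted p = 1.53e-04). At the same time PBS2 was called lower, by -1.22.

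Calcium signalling genes, which act in salt through the phosphatase calcineurin, were mostly higher at 0.23 h. Of 16 genes 10 rose and 1 fell, with a median of 0.52, and after quantile normalization 6 were called higher and 1 lower (median 0.26). The inhibitor RCN2 rose 4.73-fold (2.24), the vacuolar calcium pump PMC1 by 1.77, the kinase CMK2 by 1.57, the vacuolar exchanger VCX1 by 1.55 and RCN1 by 0.56. CMK2 had 1.17 at 0.23 h and between -1.27 and -0.56 at the later times, against -0.86 and 0.06 at steady state, so its baseline was the less certain. The calcineurin-dependent transcription factor CRZ1 had a change of 0.09 that was not called, and the glucan synthase subunit GSC2 fell by 0.78.

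**Figure D2:**
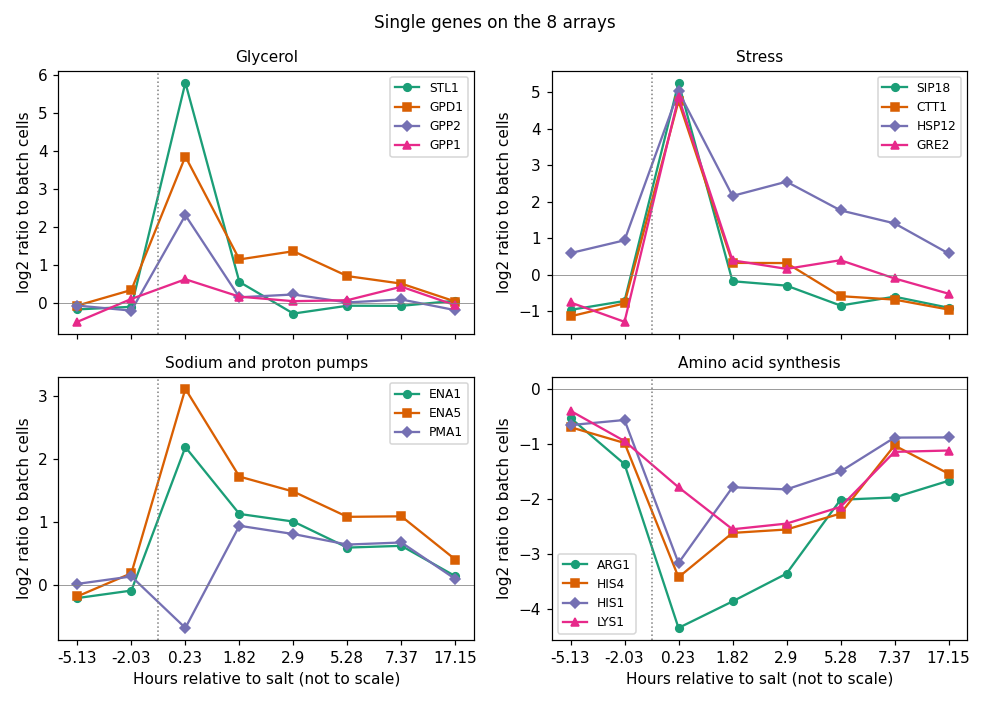
Log2 ratio to the batch cells (vertical axes) of single genes on each of the 8 arrays (hours relative to the salt, not to scale), in panels for glycerol, stress, pumps and amino acid synthesis, with the dotted line at the onset. STL1 peaked at 5.79 at 0.23 h and was back to 0.56 at 1.82 h, ENA1 was at 1.12 by then, and ARG1 was still at -3.86.

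The largest rises belonged to genes of osmotic and general stress. Of 27 osmotic and salt stress markers 26 rose at 0.23 h, against 24.9% over all features, with a median of 3.18. The exception was HSP42 (0.07, which turned to -0.078 after quantile normalization). The list was chosen with earlier results of these data known, so its count is no independent evidence of a direction. SIP18 (YMR175W), which encodes a hydrophilin of dried and salted cells, had log2 ratios of -0.96 and -0.72 at steady state and then 5.26, -0.18, -0.30, -0.84, -0.60 and -0.90. Its peak was confined to the first array after the salt among these 8, with a rise of 6.10 ± 0.14 or 68.8-fold (adjusted p = 1.02e-08), the largest of all features. The aldehyde dehydrogenase ALD3 rose 60.4-fold, the methylglyoxal reductase GRE2 59.3-fold, the kinase-like FMP48 52.9-fold and the cytosolic catalase CTT1 52.7-fold. GRE2 had -0.76 and -1.29 at steady state and then 4.87, 0.40, 0.16, 0.40, -0.10 and -0.52, and every array after the salt lay above both. The other features among the 10 largest increases were SOL4, RTC3, PHM7 and MSC1, with changes between 5.16 and 5.58.

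The membrane-protective HSP12 kept a raised level for longer. It read 0.59 and 0.95 at steady state and then 5.02, 2.16, 2.55, 1.77, 1.41 and 0.59. The first array was the highest and the next 4 also lay above steady state, with changes called at 0.23 h (4.25 ± 0.17, adjusted p = 2.5e-07), at 1.82 h (1.39), at 2.9 h (1.78) and at 5.28 h (0.99). Of the osmotic markers 7 were called higher at 1.82 h, 10 at 2.9 h and 2 at 5.28 h (HSP12 and GRE2).

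The stress module, a set of 255 genes that the study had defined by co-expression, had 233 genes higher and 4 lower at 0.23 h, with a median of 1.56. It is not given in the sources used here whether these arrays entered the definition of the modules, so their counts are no independent evidence of a direction. At 1.82 h 13 of the 255 stress genes were called higher and 5 lower, with a median of 0.00, against 1.68% and 2.22% over all features. After quantile normalization 5 were called higher and 0 lower at that time (median 0.02), against 32 and 13 of 6132 over all features. Antioxidant enzymes rose in part, with 13 of 21 higher and 1 lower (median 0.65). The mitochondrial peroxiredoxin PRX1 rose by 3.43, the superoxide dismutases SOD2 and SOD1 by 2.11 and 0.83 and glutathione reductase GLR1 by 1.91. The peroxisomal catalase CTA1 fell by 1.48.

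Of 18 genes of trehalose and glycogen metabolism 16 rose at 0.23 h and 1 fell, with a median of 1.76. Synthesis and breakdown rose together, with changes of 3.74 for TSL1 and 3.36 for TPS2 (trehalose synthesis), 1.97 for the glycogen synthase GSY1, 2.95 for the glycogen phosphorylase GPH1 and 1.94 for the trehalase NTH1. TPS1 rose by 0.63, and the acid trehalase ATH1 fell by 0.43, a change that turned positive (0.145) after quantile normalization. None of the 18 was called by limma at 1.82 h or later. Over all features 3.9% were called at 1.82 h, 2.61% at 2.9 h and 0.783% at 5.28 h, so 0 of 18 is close to these shares. Of 17 genes of hexose transport and phosphorylation 11 rose and 1 fell (median 0.80). HXT5, a transporter of slowly growing cells, rose 5.54-fold with 2.20 at 0.23 h, against -0.26 and -0.28 at steady state, and the low-affinity HXT1 rose 3.62-fold. The kinases GLK1 (2.18) and HXK1 (2.10) rose, and HXK2 (0.22) was not called. The HXT genes are alike in sequence, and their spots may share RNA.

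In the oxidative phosphorylation module 27 of 51 genes rose and 6 fell at 0.23 h (median 0.52), with 12 higher and 2 lower after quantile normalization (median 0.06), while HAP4, the activator of respiratory genes, fell by 1.31. The TCA cycle module had 7 of 10 genes higher and 2 lower (median 0.62), and after quantile normalization 2 higher and 0 lower (median 0.17). Mitochondrial ribosomal proteins had 33 of 100 higher, against 24.9% over all features, and 5 lower (median 0.21). After quantile normalization 9 of these 100 were called higher and 1 lower (median 0.02), against 726 and 773 of 6132 over all features.

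Among the groups examined, ribosome synthesis had the most genes lower. Of the 231 genes of the ribosomal biogenesis module, which assemble ribosomes and process their RNA, 220 fell at 0.23 h and 2 rose, with a median of -1.55. UTP23 (YOR004W), which acts in early processing of small-subunit RNA, had log2 ratios of 0.89 and 0.97 at steady state and then -1.99, 0.77, 0.86, 0.75, 0.61 and 0.79. It was far below steady state on the first array only, by 2.92 ± 0.15 or 7.57-fold (adjusted p = 6.93e-07). RLP24, which helps to form the large subunit, fell by 2.89 and likewise returned to 1.22 at 1.82 h, against 1.30 and 1.04 at steady state.

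Of 24 subunits of RNA polymerases I and III, which make ribosomal and transfer RNA, 22 fell and 1 rose, with a median of -1.46. The list ran from RPA43 (-2.76 ± 0.16) to RPA14, the exception that rose (0.98), and the large subunits RPA190 (-0.51) and RPO31 (-0.42, not called) moved least among those below 0. Genes for the ribosomal proteins themselves moved less than those for assembly, with 65 of 117 lower, 1 higher and a median of -0.59. The lowest member of that module was ELO3 (-3.12), an elongase of very long fatty acids that was grouped by co-expression and is no ribosomal protein. At 1.82 h no gene of the ribosomal biogenesis and ribosomal protein modules was called lower, against 2.22% over all features. Called higher were 5 (2.16%) and 4 (3.42%), against 1.68% over all features, with medians of 0.11 and 0.20. After quantile normalization 1 and 0 were called higher and 0 lower in either module, with medians of 0.005 and 0.195. Over all features that setting called 32 higher and 13 lower at 1.82 h.

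**Figure D3:**
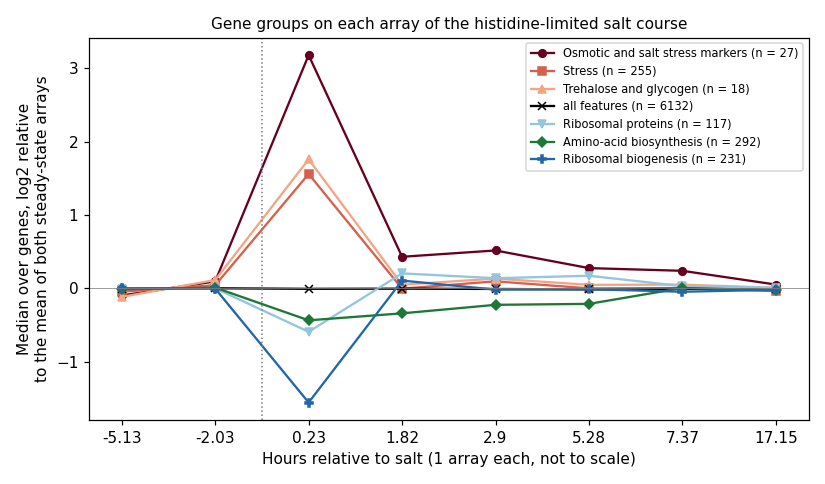
Median over the genes of each group, as log2 ratio relative to the mean of both steady-state arrays (vertical axis), on each of the 8 arrays (hours relative to the salt, not to scale). Osmotic markers peaked at 3.18 and the stress module at 1.56 at 0.23 h, ribosomal biogenesis fell to -1.55 there and was at 0.11 at 1.82 h, and amino acid synthesis was at -0.34 at 1.82 h and -0.21 at 5.28 h.

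The largest single fall was that of NRM1 (YNR009W), a repressor of G1 genes, which had log2 ratios of 0.57 and 0.46 at steady state and then -2.89, 0.65, 0.35, 0.68, 0.62 and 0.61. It was 10.6-fold lower at 0.23 h (-3.40 ± 0.13, adjusted p = 1.92e-07) and back on the next array. Cell cycle genes fell with it, with 11 of 18 cyclins and cell cycle regulators lower (median -0.57), against 24.6% over all features. The CDK inhibitor SIC1 was the only one called higher (0.59), against 24.9% over all features. After quantile normalization 5 were called lower and 0 higher (median -0.48), so the rise of SIC1 was not called there. Against all 7 histidine-limited steady-state arrays 7 were called lower and 1 higher. The S-phase cyclin CLB6 fell by 1.59, the mitotic cyclins CLB1 and CLB2 by 1.35 and 0.57 and the G1 cyclin CLN1 by 1.09, and CLN2 (-0.25) and CLN3 (-0.32) were not called. CLB2 was called higher on the next array, by 0.71. The module of histones and other proteins had 34 of 42 genes lower (median -0.86), though the histone gene HTB1 was its 1 member called higher (0.46).

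Of 30 genes of cell wall integrity and wall proteins 9 fell (30.0%, against 24.6% over all features) and 3 rose, with a median of -0.10. Those that fell included the wall-remodelling enzymes UTR2 (-2.38) and EXG1 (-1.44), the glucan synthase FKS1 (-1.35) and the daughter-cell wall gene DSE2 (-1.65), and the chitin synthases CHS1 (1.05) and CHS3 (0.53) were among those that rose. Of 24 genes of ergosterol synthesis 10 fell and 2 rose, with a median of -0.30. The late-step enzymes ERG3 (-2.77), ERG5 (-1.76), ERG2 (-1.39) and ERG11 (-0.96) fell, and the squalene synthase ERG9 rose (0.97). The fatty acid desaturase OLE1 fell by 2.76. Also among the 10 largest decreases were ZEO1 (-3.25), a regulator of the wall integrity pathway, the phosphatase PHO3 (-2.88), SVS1 (-2.83) and the mitochondrial carriers YMC2 (-3.14) and GGC1 (-3.11).

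Of 27 genes of pheromone response and mating 11 were lower and 2 higher (median -0.27), and after quantile normalization 4 were lower and 0 higher (median -0.06). Of 6 a-cell markers 4 fell at 0.23 h, MFA2 by 1.65, MFA1 by 0.80, AGA2 by 0.76 and STE2 by 0.51, for a median of -0.63. Of 4 alpha-cell markers 1 rose (STE3, 0.84, turned to -0.184 by quantile normalization) and 1 fell. The cells of both channels are of 1 mating type by the methods, so these ratios do not show which markers are present. They ran from -2.59 to -0.04 at steady state for a-cell markers and from -0.13 to 1.10 for alpha-cell markers. BAR1, disrupted in the strain of the methods, had ratios between -0.16 and 0.21 on all 8 arrays.

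Of the 292 genes of the amino acid synthesis module 143 fell and 26 rose at 0.23 h, with a median of -0.43. After quantile normalization these were 49 lower and 28 higher, with a median of -0.03. Over all 6132 features that setting called 773 lower and 726 higher. The module had 57 genes lower and 3 higher at 1.82 h (median -0.34), 42 and 0 at 2.9 h (median -0.22), and 15 lower and 1 higher at 5.28 h (median -0.21), and its median was 0.01 at 7.37 h. After quantile normalization 6 genes were called lower at 1.82 h (median -0.16) and 8 at 2.9 h (median -0.14). ARG1 (YOL058W), which makes argininosuccinate on the way to arginine, had log2 ratios of -0.53 and -1.37 at steady state and then -4.34, -3.86, -3.36, -2.02, -1.97 and -1.67. Every array after the salt was below both steady-state arrays, though these lay far apart, so the baseline is less certain. The level of ARG1 rose from array to array after 0.23 h without reaching either of them. Its change was not called at 5.28 h (-1.07) or later. Its fall at 0.23 h was 10.5-fold (-3.40 ± 0.27, adjusted p = 7.7e-06), of which 85.8% was left at 1.82 h and 70.9% at 2.9 h.

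Histidine synthesis, the pathway of the limiting nutrient, had genes called lower on later arrays too. HIS4 (YCL030C), a multifunctional enzyme of the pathway, had -0.70 and -0.98 at steady state and then -3.42, -2.62, -2.56, -2.27, -1.03 and -1.54. It lay below both steady-state arrays throughout and was called lower at 0.23 h (-2.58 ± 0.15, adjusted p = 1.4e-06), at 1.82 h (-1.78), at 2.9 h (-1.72) and at 5.28 h (-1.43, adjusted p = 0.00323). HIS1, the enzyme of the first step, had -0.66 and -0.57 at steady state and then -3.17 at 0.23 h, -1.79 and -1.83 at the next times and -0.89 and -0.88 at 7.37 and 17.15 h. Its fall of 2.55 was 5.87-fold, with 46.1% left at 1.82 h. HIS7 also fell at 0.23 h. HIS3 fell by 1.83, but it is mutated in the strain the methods name, and what its spot reads was not tested.

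HIS5 fell late, with a change of 0.34 at 0.23 h (not called) and -1.75 at 1.82 h (adjusted p = 0.026), but its steady-state ratios of -0.35 and -1.47 lay far apart. HIS6 rose by 0.45. HIP1, the histidine permease, had 2.53 and 4.42 at steady state and 2.44, 4.19, 4.14, 4.20, 4.53 and 4.37 after the salt. The change of -1.03 at 0.23 h was within the gap between the repeat arrays (adjusted p = 0.151), and it turned to 0.127 against all 7 histidine-limited steady-state arrays. GCN4 had ratios between -0.26 and 0.09 on all 8 arrays, with a change of -0.04 at 0.23 h that turned to 0.009 after quantile normalization. Over the 14 genes of histidine synthesis and uptake 5 fell and 1 rose at 0.23 h, with a median of -0.10 that quantile normalization turned to 0.04. At 1.82 h 6 fell (42.9%, against 2.22% over all features) and 0 rose (median -0.49). After quantile normalization 1 was called lower at 1.82 h (median -0.31).

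Most of the early change was gone by the next array. Among the 1127 features called at 0.23 h with a log2 change of at least 1, the median share of the change left at 1.82 h was 1.5% for the 565 that rose and 0.6% for the 562 that fell. More than 50% was left for 52 of them at 1.82 h (14 of those that rose and 38 of those that fell), for 42 at 2.9 h, 21 at 5.28 h, 9 at 7.37 h and 3 at 17.15 h. As shares over the steady-state baseline, these use the same 2 arrays at every time.

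Features called the same way at 0.23, 1.82 and 2.9 h numbered 69, of which 26 were higher and 43 lower. Of the 43, 31 were genes of the amino acid module, which holds 292 of the 6132 features. The set was not recounted after quantile normalization, which left 6 and 8 genes of the module called lower at 1.82 and 2.9 h. Beyond ARG1, HIS1, HIS3 and HIS4 the lower ones included ARG4, MET16, MET17, LYS1, the arginine permease CAN1 and ADE12 of purine synthesis. LYS1, the last enzyme of lysine synthesis, had -0.40 and -0.95 at steady state and then -1.79, -2.55, -2.45, -2.15, -1.15 and -1.12, so it was lower at 1.82 h than at 0.23 h. Among the 26 were GPD1, GCY1, the ENA genes, HSP12, CTT1, GRE2, ALD3, the acetaldehyde dehydrogenase ALD6, the TCA enzyme IDH2 and the nitrogen regulator GAT1. Called the same way at 5.28 h too were 20 features, 6 higher and 14 lower, with 12 in the amino acid module.

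Other features changed only after the first array or turned round. Of the 239 calls at 1.82 h, 122 had been called the same way at 0.23 h, 51 the opposite way (27 higher and then lower, 24 lower and then higher) and 66 not at all. Called the same way at 1.82, 2.9 and 5.28 h were 30 features, of which 4 had been called the other way at 0.23 h and 6 not at all. HSP31, a methylglyoxalase, rose by 1.94 at 0.23 h and was then lower by 1.28, 1.10 and 1.19. RPS9A, a small-subunit protein with a near-identical copy, had a change of -0.59 at 0.23 h and of 1.20, 1.07 and 1.15 at those times. The unnamed ORFs YLR162W (-0.91, then 3.09, 1.83 and 2.43) and YGL088W (-0.50, then 2.71, 1.70 and 2.05) turned the same way.

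Those not called at 0.23 h were LYS20, SER33 and ARO8 of amino acid synthesis, called lower, and the histone chaperone gene SPT16, LRG1 and FMP27, called higher. SPT16 had -0.77 and -0.73 at steady state and then -0.85, 0.80, 0.03, 0.40, -0.30 and -0.59. EHD3, a mitochondrial hydrolase that was already called higher at 0.23 h, read -1.63 and -1.52 at steady state and then -0.75, 0.46, -0.35, 0.19, -0.57 and -1.18. In both genes the array at 1.82 h was the highest of the course and that at 5.28 h lay above that at 2.9 h. A few features differed on 1 array alone, such as ULS1 (3.42 at 2.9 h and between -0.34 and 0.45 on the others) and YRA2 (-2.91 at 2.9 h and between -0.48 and 0.20 on the others).

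With the arrays at 5.28, 7.37 and 17.15 h taken as 1 late group, limma called 0 of 6132 features different from steady state (0.0%), with 746 at an unadjusted p under 0.05. Without the array at 17.15 h the count was 49 (31 higher, 18 lower), and without the steady-state array at -5.13 h or -2.03 h it was 11 or 16. These late arrays are time points of 1 culture and not separate cultures. Any change between those times entered the error of this fit and of the comparison that follows. Their p-values thus measure more than the spread between repeat arrays, and the 0 calls do not show that nothing stayed displaced. Set against the late arrays in place of the steady state, the array at 0.23 h had 3235 features called (52.8%), 1629 higher (26.6%) and 1606 lower (26.2%). The stress module had 233 genes higher and 5 lower in that comparison and the ribosomal biogenesis module 2 higher and 220 lower.

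The early response to salt was next set against that to heat shock in the same limitation, with each first array taken relative to its own steady state. The difference was called for 926 features (15.1%), 402 above 0 (6.56%), where salt gave the higher change, and 524 below 0 (8.55%). Without the steady-state array at -5.13 h or -2.03 h the counts were 549 or 591, and after quantile normalization 103. The osmotic markers had a median change of 3.18 under salt and 2.38 under heat shock, with 14 of 27 genes called higher under salt and 1 lower. The stress module had medians of 1.56 and 1.17, with 69 genes called higher and 12 lower under salt. Quantile normalization brought the median difference of the osmotic markers from 1.09 to 0.28, with 8 called higher and 1 lower, and that of the stress module from 0.44 to 0.08, with 10 called higher and 4 lower.

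STL1 differed most. Its change was 5.91 under salt and -0.09 under heat shock, a difference of 6.00 ± 0.19 (adjusted p = 4.11e-07). GRE2 differed by 4.56, FMP48 by 4.02, PHM7 by 3.29 and SIP18 by 3.28. For SIP18 the steady states were themselves apart, at -0.96 and -0.72 in the salt course and 1.99 and 2.07 in the heat shock course, and its ratios on the first arrays were 5.26 and 4.85. ENA1 (2.34 under salt, 0.25 under heat shock) and GPD1 (3.70 and 1.65) were also called higher under salt.

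Some chaperone genes had the lower change under salt, while HSP12 had the higher one (4.25 under salt and 2.38 under heat shock, difference 1.87, adjusted p = 0.00147). HSP30, a membrane chaperone, changed by -0.21 under salt and by 4.09 under heat shock, a difference of -4.30 ± 0.26 (adjusted p = 2.78e-05), and the small salt value turned to 0.04 against all 7 histidine-limited steady-state arrays and to 0.668 after quantile normalization. The cytosolic chaperone SSA4 changed by 0.89 and 4.19, a difference of -3.30. RAD34 (-3.40), ATG41 (-3.41), DSF1 (-3.40) and ZEO1 (-3.49) completed the 5 largest differences downward, and ZEO1 and ATG41 had fallen under salt by 3.25 and 2.75. Other stress genes were not called different, such as TSL1 (3.74 and 3.31, difference 0.43 ± 0.26, adjusted p = 0.294) and HSP104 (3.01 and 3.65, difference -0.64 ± 0.28, adjusted p = 0.155).

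**Figure D4:**
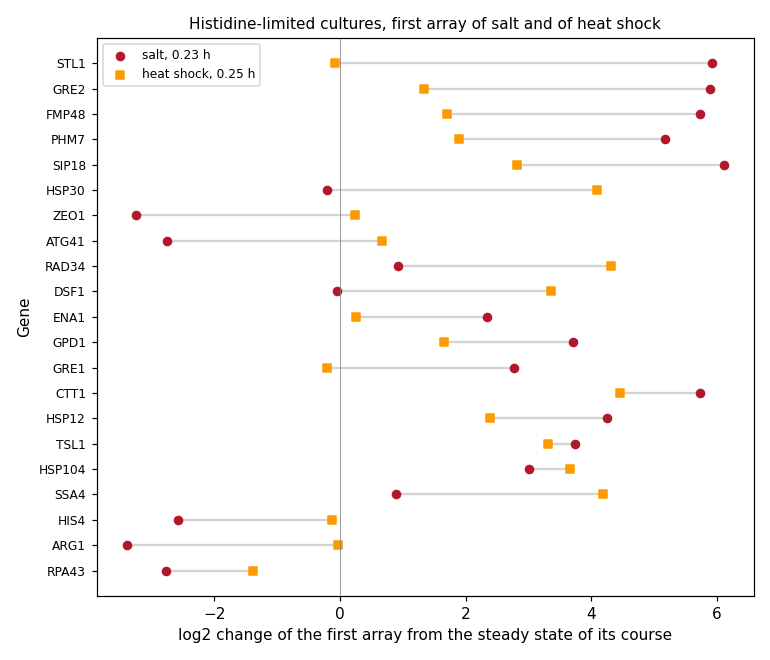
Log2 change of the first array from the steady state of its own course (horizontal axis) for named genes in histidine-limited cultures, with circles for salt at 0.23 h and squares for heat shock at 0.25 h. STL1 had 5.91 and -0.09, HSP30 -0.21 and 4.09, and TSL1 3.74 and 3.31.

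The ribosomal biogenesis module had medians of -1.55 under salt and -0.85 under heat shock, with 100 of 231 genes called lower under salt and 0 higher. After quantile normalization 6 were called lower and 0 higher, and the median difference of -0.69 became -0.17. For the ribosomal protein module 20 genes were called lower and 3 higher, with a median difference of -0.10 that turned to 0.02 after quantile normalization. In the amino acid module 70 of 292 genes were called lower under salt and 10 higher. The median difference there was -0.17, which quantile normalization turned to 0.06, with 14 called lower and 6 higher. ARG1 changed by -3.40 and -0.04 and HIS4 by -2.58 and -0.14, so that both were called (adjusted p = 6.49e-04 and 2.06e-04).

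The last comparison set salt in histidine limitation against salt in glucose limitation. Dose (0.31 and 0.4 M), strain and limitation differed together and cannot be told apart, and the glucose-limited steady state is 1 array. The difference between changes was called for 2081 features (33.9%), with 1155 above 0 (18.8%), where the histidine-limited change was the higher, and 926 below 0 (15.1%). After quantile normalization the count was 573. The osmotic markers had medians of 3.18 in histidine limitation and 3.01 in glucose limitation, and the stress module 1.56 and 1.16. STL1 changed by 5.91 and 6.45 (difference -0.53 ± 0.20, adjusted p = 0.0666), ENA1 by 2.34 and 1.97 (0.37 ± 0.22, adjusted p = 0.221), GPD1 by 3.70 and 3.46 (0.24 ± 0.27, adjusted p = 0.512) and CTT1 by 5.72 and 5.83 (-0.10 ± 0.31, adjusted p = 0.823). None of these 4 differences was called, with standard errors of 0.20 to 0.31.

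Glycerol genes differed beyond STL1 and GPD1. GPP1 rose by 0.82 in histidine limitation and changed by 2.97 in glucose limitation (difference -2.16 ± 0.33, adjusted p = 0.00136), and GPP2 by 2.44 and 3.38 (-0.94). The breakdown genes went the other way, with GUT1 at 0.69 and -2.08 (2.76 ± 0.21) and GUT2 at 1.78 and -0.92 (2.70 ± 0.24). Hexose transporters differed widely, with 11 of 17 genes of that list called higher in histidine limitation and 0 lower, and medians of 0.80 and -0.46. HXT4 changed by 1.47 and -3.21 (difference 4.67), HXT12 by 1.53 and -3.05 (4.58) and HXT1 by 1.85 and -2.65 (4.51), with the reservation on shared sequence made above.

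Genes for ribosomal proteins fell less in histidine limitation. The medians were -0.59 and -2.10, with 97 of 117 genes called higher in histidine limitation and 1 lower. The ribosomal biogenesis module was closer between the limitations, with medians of -1.55 and -1.25. Of its 231 genes 17 were called higher and 59 lower, against 18.8% and 15.1% over all features. This closeness depended on scaling, since after quantile normalization the median difference of -0.25 became -0.59, with 3 called higher and 31 lower. Oxidative phosphorylation had medians of 0.52 and -0.86, with 36 of 51 genes called higher and 2 lower, but its median difference of 1.10 became -0.01 after quantile normalization. The TCA cycle module had 0.62 and -0.85, with 7 of 10 genes called higher and 0 lower, but after quantile normalization its median difference of 1.40 became 0.10, with 0 called higher and 1 lower.

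In the amino acid module 105 of 292 genes were called lower in histidine limitation and 42 higher, with a median difference of -0.34. After quantile normalization these were 18 lower and 17 higher, with a median difference of -0.06. ARG3, of arginine synthesis, changed by -1.60 and 3.12, a difference of -4.73 ± 0.37 (adjusted p = 5.33e-05). HIS4 changed by -2.58 and 0.04 (difference -2.63) and ARG1 by -3.40 and -0.45 (-2.94). The other features with the largest differences were VHS1 (4.88), the mitochondrial aldehyde dehydrogenase ALD4 (4.86) and MRP13 (4.91) above 0, and RTC3 (-3.68), NAN1 (-3.35), PRR2 (-3.35) and SPG1 (-3.31) below 0. MRP13, a mitochondrial ribosomal protein, lay between 0.48 and 0.78 on all 8 histidine-limited arrays and at -3.80 on the glucose-limited array at 0.25 h, against 1.12 at that steady state, so its difference rests on that 1 array.

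**Figure D5:**
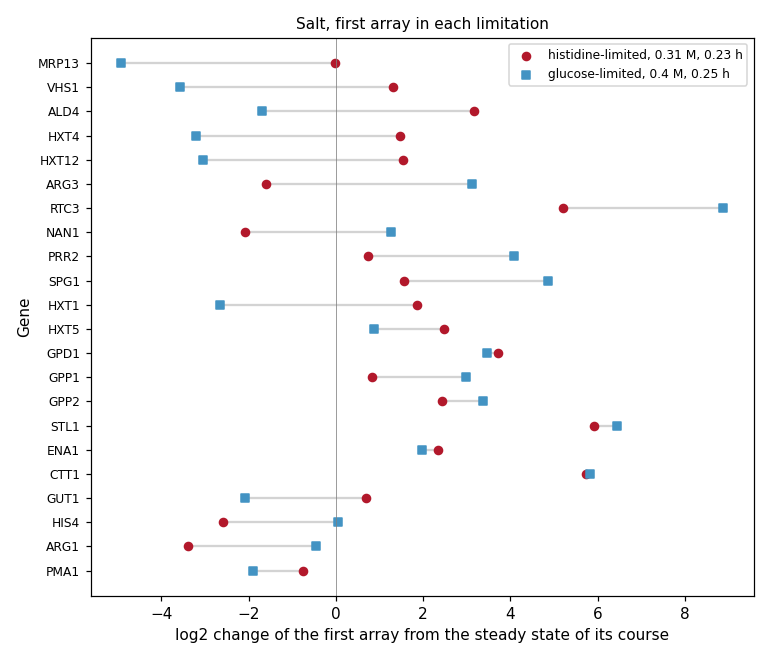
Log2 change of the first array after salt from the steady state of its own course (horizontal axis) for named genes, with circles for histidine limitation (0.31 M, 0.23 h) and squares for glucose limitation (0.4 M, 0.25 h). HXT4 had 1.47 and -3.21, ARG3 -1.60 and 3.12, and CTT1 5.72 and 5.83.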

How the data were processed

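Arrays of yeast ORFs with Cy5 and Cy3 were used, and per feature and array the authors deposited 1 log2 ratio (Cy5 to Cy3) that they had normalized. The methods state image analysis, log2 transformation, correction for technical biases and normalization, with no version. These deposited log2 values were used without change, and no value was missing on the 8 arrays. All per-sample columns carried a sample title (0 without). Of 6132 feature names, 5665 matched a RefSeq locus tag and 5138 a gene symbol. Their coordinates are not printed, since the build behind the array is not given in the sources used here.

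For each change limma 3.58.1 was run under R 4.3.3 (empirical Bayes, two-sided, Benjamini-Hochberg over all features, threshold 0.05) in a fit of 15 arrays, with a mean for each steady state and a coefficient for each lone array. The residual spread came from 3 repeat pairs, with 3 residual degrees of freedom. With the late arrays as a group there were 5, since differences among those late arrays then entered the spread too. The adjusted p-values are limma's. Summaries and plots used Python 3.11.15, pandas 2.3.3, numpy 2.4.6 and matplotlib 3.10.9. Groups followed the sample titles.

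Gene lists came from general knowledge and modules from the study's supplement. The members and lists were chosen with earlier results of these data known. Named genes were the 10 largest increases and decreases called at 0.23 h and the 5 largest each way in either difference between courses. A preset list of 37 genes and the highest and lowest gene of each list were added. The 8 largest each way called in the late group were also planned, but with 0 calls there this rule named no gene. Genes called at several times or on 1 array alone, and list members given as examples, were named after their values were seen. A search for promoter motifs was not run for lack of a reference sequence.

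Tested on simulated data with 200 changed genes among 6132, the fit recovered 100% at a log2 change of 1 for 0.23 h. It recovered 77% and 71% for the differences from heat shock and from glucose limitation, with 2.91 to 6.98% of calls false over 5 comparisons. The simulated noise was independent, with the fitted spread on every array. These rates therefore take for granted that a lone array varies as repeat arrays do. The data also had far more features called at 0.23 h (3036), and the simulated late arrays had no drift. Alternatives left out each steady-state or late array, pooled baselines, centred arrays, applied quantile normalization, treated zeros as missing, filtered on dynamic range, or changed the variance model.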

Additional observations from a re-analysis of the deposited data

Results flagged for a closer look

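Effects that differed between courses by a test of the difference are listed here with their values and no explanation. Between the first arrays after salt and after heat shock in histidine limitation, 926 features differed (limma, adjusted p under 0.05). The named ones were STL1 (6.00), GRE2 (4.56), FMP48 (4.02), PHM7 (3.29) and SIP18 (3.28), with the higher change under salt, and HSP30 (-4.30), ZEO1 (-3.49), ATG41 (-3.41), RAD34 (-3.40) and DSF1 (-3.40), with the lower change under salt, all as log2 differences.

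Between salt in histidine limitation and salt in glucose limitation, 2081 features differed by the same test. The named ones were MRP13 (4.91), VHS1 (4.88), ALD4 (4.86), HXT4 (4.67) and HXT12 (4.58), with the higher change in histidine limitation, and ARG3 (-4.73), RTC3 (-3.68), NAN1 (-3.35), PRR2 (-3.35) and SPG1 (-3.31), with the lower change there. Dose, strain and limitation cannot be told apart in these differences.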

How the results depend on the processing

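No paired analysis was possible because the course has 1 array per time after the salt and the numbers of its repeat arrays pair nothing. Among 11 alternatives, the count at 0.23 h kept within 1.5 times of 3036 except under quantile normalization (1499). Quantile normalization gave 45 calls at 1.82 h, 39 at 2.9 h, 16 at 5.28 h, 1886 for 0.23 h against the late arrays, 103 for salt against heat shock and 573 for the 2 limitations. Leaving out 1 steady-state array gave 69 to 115 calls at 1.82 h, 49 to 73 at 2.9 h, 28 to 35 at 5.28 h, 2 to 8 at 7.37 h, 0 to 6 at 17.15 h and 549 to 591 for salt against heat shock. Leaving out 1 steady-state or late array gave 0 to 49 calls in the late group. With zeros as missing values, 1 feature was called at 7.37 h and 1 in the late group. Robust moderation called 1 at 7.37 h, 2 at 17.15 h and 3 in the late group, and the filter on dynamic range called 1 in the late group. The spread of the salt pair alone, an alternative chosen after seeing the data, gave 2904 calls at 0.23 h and 0 in the late group.

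Of 1459 alternative values for single genes 1384 kept direction and call, 55 lost the call, 6 gained it and 14 reversed. The reversed changes at 0.23 h were HSP30 (0.04 with the pooled baseline, 0.668 with quantile normalization), MSN4 (-0.05 to 0.034 without either steady-state array, 0.218 with the pooled baseline, 0.26 with quantile normalization), MRP13 (-0.13 to 0.108 without either steady-state array, 0.012 with the pooled baseline) and HIP1 (0.127 with the pooled baseline). Under quantile normalization DSF1 (0.006), GCN4 (0.009), FUS1 (0.181), STE3 (-0.184), HSP42 (-0.078) and ATH1 (0.145) also reversed. The causes were not tested beyond the construction of each alternative. Signal over background is unknown here, so the precision of dim spots cannot be stated.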
